A study of Mus musculus with 2 samples.

Results

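The 10 genes described here, Mat1a, Gnmt, Nnmt, Gamt, Ahcy, Bhmt, Cbs, Cth, Cdo1 and Csad, encode liver enzymes that activate methionine, spend its methyl group, recycle or remove homocysteine and turn cysteine into taurine. They were taken by gene symbol from a deposited table of 23283 gene rows, all 10 were found there with a usable status, and none was set aside. RNA came from perfused livers of male C57Bl/6 mice aged 6 months, and mRNA from 4 livers of each genotype was combined before library preparation, giving 1 library for each of 2 genotypes. The first, called the control pool, was labelled Akt1F/F:Akt2-/-, and the second, called the Alb-Cre pool, was labelled Akt1F/F;Akt2-/-;Alb-Cre. By these labels, mice of both genotypes lacked the kinase gene Akt2 in every tissue and carried floxed alleles of its relative Akt1. Alb-Cre is a recombinase driven by the albumin promoter, which acts in hepatocytes and leaves floxed alleles of most other liver cells in place. The comparison asks how these livers differ when Akt1, a kinase downstream of the insulin receptor, is targeted in hepatocytes in mice labelled as Akt2-null. With a single pooled library per genotype there is no replicate, so no value below has an error and no p-value was computed.

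Methionine is converted to S-adenosylmethionine, the methyl donor of most methylation reactions, and giving up the methyl group leaves S-adenosylhomocysteine, which is split into adenosine and homocysteine. Homocysteine is either methylated back to methionine or passed through the transsulfuration pathway to cysteine, from which the liver makes glutathione, sulfate and taurine. Hepatocytes carry out much of the body's methionine turnover, and taurine made there is joined to bile acids before they are secreted.

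Of the 10 enzyme genes, Csad, the decarboxylase that forms hypotaurine, was lower in the Alb-Cre pool at 28.7% of its control level. Nnmt, which methylates nicotinamide, was 2.32-fold higher. The other 8, which span methionine activation, homocysteine recycling and cysteine formation, lay within 2-fold. Values are the authors' FPKM, fragments scaled to transcript length and between libraries, the latter by a setting that is not given. Scaling to length allows levels of different genes to be compared within a library. Each difference is the log2 of the Alb-Cre level over the control level after 1 FPKM was added to both, and a gene was called higher or lower at a ratio of 1 or more in size, that is 2-fold. A gene counted as measured if the authors' status was OK and its level reached 1 FPKM in at least 1 library, which held for 11406 genes and for all 10 enzyme genes. Across measured genes 3.75% were called higher and 1.83% lower, so that 1 of 10 higher and 1 of 10 lower is a matter of single genes and not of the set. The enzyme genes are far more abundant than most, and among the 1679 genes whose mean over the libraries was 50 FPKM or more, 3.16% were higher and 4.88% lower. The median log2 ratio was -0.17 over the 10 genes, -0.06 over all measured genes and -0.16 over those 1679 abundant genes.

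Akt1 was listed at 23.7 FPKM in the control pool and 17.1 in the Alb-Cre pool, and Akt2 at 37.5 and 33.5 FPKM, log2 ratios of -0.45 and -0.16. Akt2 was thus listed above Akt1 in both pools, although both were labelled Akt2-/-. These values cover whole genes, and which exons were removed is not given in the sources used here, so they check the labels weakly. Hepatocyte markers were abundant in both libraries, with a sum of 15306 and 12073 FPKM over those with status OK, led by the transport protein gene Ttr. The 9 measured hepatocyte markers had a median log2 ratio of -0.35, with 8 below 0, and 1 of them was called higher and 0 lower. Cyp2e1 was listed at 0 in both pools with the status HIDATA and was not used. Kupffer cell and macrophage markers summed to 170 FPKM in the control pool and 405 in the Alb-Cre pool, and 6 of 11 were called higher. Centring the log2 ratios on the 4964 genes that reached 10 FPKM in both pools shifts them upwards by 0.13, which also moves the median of all measured genes from -0.06 to 0.07. Small ratios below are therefore best read against that shift.

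The enzyme genes were among the more abundant of the liver in the control pool. In the control pool their order was Gnmt, Mat1a, Bhmt, Ahcy and Cdo1, at 2107 down to 1265 FPKM, and then Cth, Gamt, Cbs, Csad and Nnmt. Gnmt ranked 29 and Mat1a 53 among the 11406 measured genes, whereas Nnmt ranked 913. The Alb-Cre pool gave the order Mat1a, Gnmt, Ahcy, Cdo1, Bhmt, Cth, Nnmt, Gamt, Cbs and Csad. Nnmt thus moved from the last place to place 7, and Csad from place 9 to place 10. Among all measured genes Csad ranked 749 in the control pool and 1893 in the Alb-Cre pool, and Nnmt 913 and 403. The levels of Bhmt, Ahcy and Cdo1 in the control pool lay between 1265 and 1326 FPKM, and with no spread between mice their order there cannot be told from a tie. Summed over the 10 genes the level was 8505 FPKM in the control pool and 8279.9 in the Alb-Cre pool. Csad made up 1.69% of that sum in the control pool and 0.498% in the Alb-Cre pool, and Nnmt 1.32% and 3.16%.

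**Figure D1:**
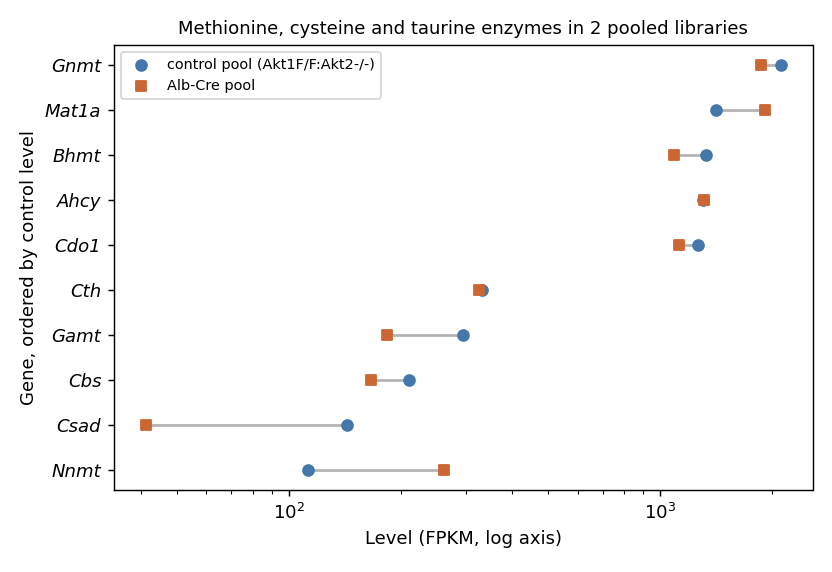
Level in FPKM on a log axis of each of the 10 enzyme genes in the control pool (circles) and the Alb-Cre pool (squares), 1 pooled library each and so without error bars. The squares of Csad (41.3 FPKM) and Nnmt (261 FPKM) lie farthest from their circles (144 and 113 FPKM), while the pairs of Ahcy and Cth nearly coincide.

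Csad, cysteine sulfinic acid decarboxylase, makes hypotaurine, the direct precursor of taurine. It lies on chromosome 15 (mm10, 102176999 to 102204724, minus strand). The deposited locus of Csad is shorter, from 102176997 to 102189043, that is 12047 bp against 27726 bp for the annotated gene. The Csad level listed for that locus was 144 FPKM in the control pool and 41.3 FPKM in the Alb-Cre pool, a log2 ratio of -1.77. The Alb-Cre pool was the low one, and only 58 of 11406 measured genes had a lower ratio. In the authors' deposited table Csad was the single enzyme gene called different, with a q-value of 0.0446. There 0.673% of the 14868 rows with status OK were called, and 0.074% were called lower. That q-value compares 2 libraries with no spread between mice in it. In bulk liver, fewer cells of a type and less RNA per cell cannot be told apart.

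Promoter windows of 300 bases, from 250 before to 50 after an annotated start, were available from RefSeq (GRCm38.p6, the sequence of mm10) for 6 of the 10 genes, with 7 windows in all. Both ends of the observed ratios among these 6 genes are shown, Csad with the lowest and Ahcy with the highest, and Bhmt, whose window held the most motif matches. The Csad window is at chr15:102188994-102189293, minus strand, and its start at 102189043 is the end of the locus that the deposited table gives for Csad. Ahcy is shown at chr2:155074448-155074747 and Bhmt at chr13:93637709-93638008, both on the minus strand. Sequences run 5′ to 3′ along the gene, and capitals mark any match, on either strand, to 5 motifs.
Csad: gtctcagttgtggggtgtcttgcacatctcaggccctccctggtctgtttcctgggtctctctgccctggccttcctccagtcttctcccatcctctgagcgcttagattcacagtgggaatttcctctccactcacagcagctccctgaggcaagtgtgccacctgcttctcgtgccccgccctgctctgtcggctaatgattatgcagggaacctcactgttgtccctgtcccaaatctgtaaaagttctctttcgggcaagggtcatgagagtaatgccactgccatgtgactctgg
Ahcy: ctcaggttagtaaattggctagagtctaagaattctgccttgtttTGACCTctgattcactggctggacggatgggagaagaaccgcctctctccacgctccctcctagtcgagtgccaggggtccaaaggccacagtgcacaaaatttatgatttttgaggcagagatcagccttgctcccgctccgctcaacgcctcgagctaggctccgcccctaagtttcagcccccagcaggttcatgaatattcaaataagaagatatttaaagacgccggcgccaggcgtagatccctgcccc
Bhmt: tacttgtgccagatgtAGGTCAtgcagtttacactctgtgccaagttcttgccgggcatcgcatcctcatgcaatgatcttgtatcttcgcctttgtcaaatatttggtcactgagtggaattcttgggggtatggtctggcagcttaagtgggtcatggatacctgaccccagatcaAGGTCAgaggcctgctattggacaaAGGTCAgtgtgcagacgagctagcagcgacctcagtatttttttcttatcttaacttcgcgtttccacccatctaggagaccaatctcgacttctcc
The motifs were GTAAACA of FoxO factors, TATAAA of the TATA box, CACGTG of the E-box, AGGTCA of nuclear receptors and TCACNCCAC of SREBP factors. Of 32851 mouse promoter windows of this length, GTAAACA was found in 3.65%, TATAAA in 13.6%, CACGTG in 7.15%, AGGTCA in 16.3% and TCACNCCAC in 1.24%. The Csad window held 0 matches to any of them. The window of a second annotated Csad start farther upstream, at 102205052 and outside the deposited locus, also held 0. AGGTCA was found at 3 places in the Bhmt window and at 1 place each in those of Ahcy and Gnmt, so in 3 of the 7 windows. CACGTG was in the Cbs window alone and TCACNCCAC in the Gnmt window alone, and GTAAACA and TATAAA were in 0 of 7. Such matches are letters only and do not show binding.

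Cdo1, cysteine dioxygenase, forms the cysteine sulfinate that Csad decarboxylates. The gene (chromosome 18, 46713193 to 46728395) had 1265 FPKM in the control pool and 1120.3 in the Alb-Cre pool, a log2 ratio of -0.18. Successive steps of the taurine branch therefore stood in different proportion, with 8.81 FPKM of Cdo1 per FPKM of Csad in the control pool and 27.1 in the Alb-Cre pool. Such a ratio between genes within a library does not depend on how the libraries were scaled. Ado, a second thiol dioxygenase that acts on cysteamine and leads to hypotaurine by another route, had 5.13 and 4.87 FPKM. Gadl1, a decarboxylase related to Csad, was at 0.0144 and 0.00917 FPKM and was not measured. The 2 measured genes whose pair of log2 levels lay nearest to that of Csad were Ces1e, a carboxylesterase gene (151 and 41.6 FPKM), at a distance of 0.08, and Hsd3b5, a hydroxysteroid dehydrogenase gene (159 and 49.6 FPKM), at 0.30. With 2 libraries this likeness rests on 2 values per gene.

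Nnmt, nicotinamide N-methyltransferase, spends S-adenosylmethionine to methylate nicotinamide, a form of vitamin B3. It lies on chromosome 9 (48591877 to 48605153). Its level was 113 FPKM in the control pool and 261 FPKM in the Alb-Cre pool, a log2 ratio of 1.21. The Alb-Cre pool was the high one, and 304 measured genes had a higher ratio. Nnmt was not called in the authors' deposited table, where its q-value was 0.487. The methylated product is oxidised by aldehyde oxidases, and the liver genes Aox1 and Aox3 of that family were lower in the Alb-Cre pool. Aox1 had 33.3 and 14.7 FPKM, a log2 ratio of -1.13, and Aox3 had 198 and 99.5 FPKM, a ratio of -0.98 just short of the 2-fold limit. Nnmt stood at 0.569 FPKM per FPKM of Aox3 in the control pool and at 2.63 in the Alb-Cre pool. The Aox1 call ended when ratios were centred (-0.99) and with a pseudocount of 5 FPKM (-0.96), and the authors' deposited table called neither gene, with q-values of 0.487 for Aox1 and 0.999 for Aox3. The genes nearest to Nnmt in their pair of log2 levels were Snord95, a small nucleolar RNA gene (113 and 231 FPKM, distance 0.18), and the actin gene Actg1 (116 and 216 FPKM, 0.28).

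Of 11 macrophage markers 10 had ratios above 0, as Nnmt did, and Cd163 had -0.39. The macrophage list had a median log2 ratio of 1.17, with C1qb at 26.2 and 66.9 FPKM and Marco at 1.77 and 9.74 FPKM, and 0 of its 11 genes were at 0 in either library. Stellate cell and fibroblast markers summed to 106 and 176 FPKM, with 0 of 6 called higher or lower. All 6 had ratios above 0, with a median of 0.51. Endothelial markers summed to 67.9 and 93.1 FPKM, with 1 of 6 called higher, 5 of 6 above 0 and a median of 0.46. Over all measured genes, 4695 of 11406 had ratios above 0. Adipocyte markers are relevant because fat tissue also expresses Nnmt, and their sum was 20.8 FPKM in the control pool and 26.9 in the Alb-Cre pool. Within it Fabp4 was called higher, with 11.8 and 25.4 FPKM, Cfd was called lower, with 6.70 FPKM in the control pool and a listing at 0 in the other, and Cidec had 2.26 and 1.44 FPKM. Adipoq and Plin1 were below 0.01 FPKM in the control pool and listed at 0 in the Alb-Cre pool, and Lep was listed at 0 in both. Bile duct markers summed to 33.7 and 33.8 FPKM, but Spp1 alone gave 30.3 and 30.5 FPKM of it. Sox9 had 1.66 and 1.21 FPKM, and Krt19, Krt7 and Epcam were below 1 FPKM in both pools and not measured. The bile duct sum thus rests mainly on 1 gene. The part of these other cells in the Nnmt difference was not tested.

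**Figure D2:**
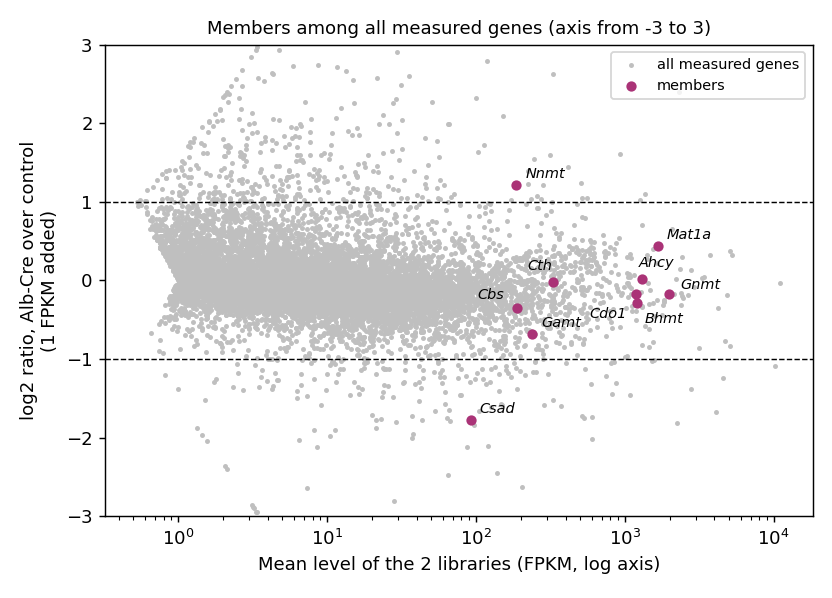
Log2 ratio of the Alb-Cre over the control level, with 1 FPKM added, against the mean level of the libraries in FPKM on a log axis, for measured genes (grey) and the 10 enzyme genes (named); dashed lines mark 2-fold and 88 genes lie beyond the plotted range of -3 to 3. Csad (-1.77) and Nnmt (1.21) lie outside the dashed lines and the other 8 between them.

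Mat1a, the methionine adenosyltransferase of adult liver, had the second highest ratio of the 10 genes. The gene (chromosome 14, 41105035 to 41124412) had 1411 FPKM in the control pool and 1911 FPKM in the Alb-Cre pool, a log2 ratio of 0.44. The Alb-Cre pool was the higher one and Mat1a was its most abundant enzyme gene of the set. Mat2a, the isozyme of most other tissues, had 48.1 and 49.2 FPKM, and its regulatory subunit gene Mat2b 29.2 and 26.7 FPKM. Mat1a exceeded Mat2a 29.3-fold in the control pool and 38.8-fold in the Alb-Cre pool.

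Gnmt, glycine N-methyltransferase, uses up surplus S-adenosylmethionine by methylating glycine. It lies on chromosome 17 (46725664 to 46729168) and had 2107 FPKM in the control pool and 1867 FPKM in the Alb-Cre pool, a log2 ratio of -0.17. Mat1a, which makes the methyl donor, stood at 0.67 FPKM per FPKM of Gnmt in the control pool and at 1.02 in the Alb-Cre pool. Nnmt amounted to 0.0534 of the Gnmt level in the control pool and 0.14 in the Alb-Cre pool, so Gnmt remained the far more abundant of these methyltransferase messages in both.

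Gamt, guanidinoacetate N-methyltransferase, completes creatine synthesis and is held to be among the main consumers of methyl groups. It lies on chromosome 10 (80258151 to 80261012). Gamt had 295 FPKM in the control pool and 184 FPKM in the Alb-Cre pool, a log2 ratio of -0.68, the lowest after Csad. It was called lower at a 1.5-fold limit and not at 2-fold. The deposited table assigns Gamt to a locus that 46 rows share, of which 33 genes were measured with a median log2 ratio of 0.02, and 1 of them had a lower ratio than Gamt. Gatm, which makes guanidinoacetate mainly in kidney, had 5.80 and 6.23 FPKM. The creatine transporter gene Slc6a8 was called higher from a low level, with 2.05 and 5.24 FPKM and a log2 ratio of 1.03, and was not called in the authors' deposited table (q-value 0.631). Pemt, which methylates phosphatidylethanolamine to phosphatidylcholine, had 580.1 and 437 FPKM, a log2 ratio of -0.41.

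Ahcy, S-adenosylhomocysteine hydrolase, had nearly the same level in both pools. The gene (chromosome 2, 155059310 to 155074497) had 1301 FPKM in the control pool and 1314 in the Alb-Cre pool, a log2 ratio of 0.01. That was the ratio smallest in size as deposited, but with centred ratios Ahcy stood at 0.15, and Gnmt and Cdo1, both at -0.040, were the smallest. Of all 50-base windows of Ahcy transcripts in GENCODE vM21, 68.7% also occurred in transcripts of other genes, 66.0% in Gm4737. Gm4737 was not analysed here, and how the authors treated reads that match such copies is not stated, so the Ahcy level is uncertain. The related gene Ahcyl1 had 40.8 and 32.9 FPKM, and Adk, which removes the adenosine that Ahcy releases, had 451 and 355 FPKM.

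Bhmt, betaine-homocysteine methyltransferase, returns homocysteine to methionine with a methyl group from betaine. It lies on chromosome 13 (93616675 to 93637961) and had 1326 FPKM in the control pool and 1089.6 in the Alb-Cre pool, a log2 ratio of -0.28. The neighbouring paralog Bhmt2 had 147 and 108 FPKM, a ratio of -0.44, so that Bhmt exceeded Bhmt2 9.04-fold and 10.1-fold. For Bhmt 26.1% of 50-base windows occurred in other genes, 24.1% in Gm5096, which was not analysed here either, and the Bhmt level is uncertain for the same reason. Mtr, the folate-dependent methionine synthase that forms the alternative route, had 1.80 and 1.44 FPKM.

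Cbs and Cth catalyse the successive steps of transsulfuration, from homocysteine to cystathionine and from cystathionine to cysteine. Cbs (chromosome 17, 31608894 to 31637238) had 211 FPKM in the control pool and 166 in the Alb-Cre pool, a log2 ratio of -0.35. Cth (chromosome 3, 157894248 to 157925077) had 332 and 326 FPKM, a ratio of -0.03 that turned to 0.11 with centred ratios. The control pool was thus the higher one for Cbs, and for Cth the libraries were nearly level. Cth stood at 1.57 FPKM per FPKM of Cbs in the control pool and at 1.96 in the Alb-Cre pool. Gclc, the catalytic subunit that commits cysteine to glutathione, had 106 and 71.7 FPKM, a log2 ratio of -0.56. Of the other glutathione synthesis genes, Gclm had 129 and 103 FPKM (-0.33), and Gss went the other way with 47.6 and 64.2 FPKM (0.43). For the 8 enzyme genes other than Csad and Nnmt, the q-value in the authors' deposited table was 0.999.

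**Figure D3:**
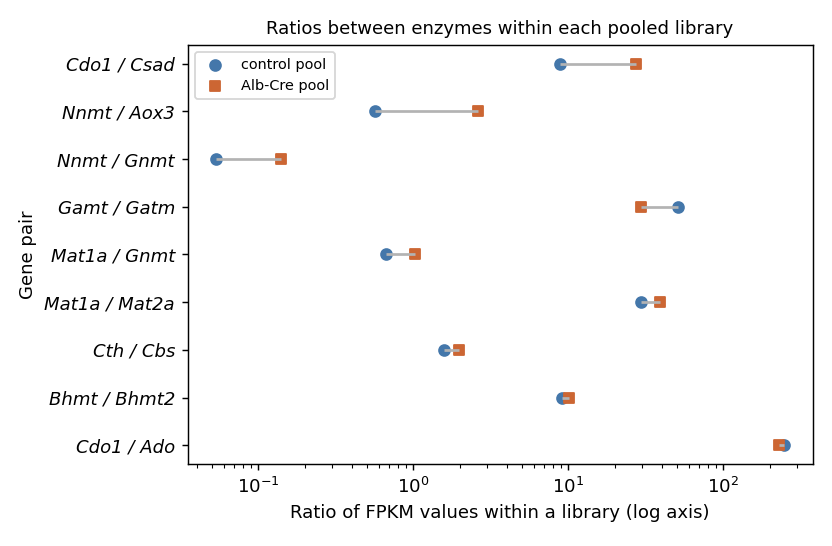
Ratio of the FPKM values of paired genes within a library, on a log axis, for the control pool (circles) and the Alb-Cre pool (squares), 1 pooled library each. The pair Cdo1 to Csad moved from 8.81 to 27.1 and Nnmt to Aox3 from 0.569 to 2.63, while Cth to Cbs and Bhmt to Bhmt2 differed by less than 1.5-fold.

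Other genes of the surrounding pathways were read from 7 lists holding 100 genes, of which 98 were matched and 89 measured. Of these 89 genes, 3 were called higher and 1 lower, shares of 3.37% and 1.12% that lie near the 3.75% and 1.83% of all measured genes. Ratios below 0 were found for 68 of the 89, or 76.4%, against 58.8% of all measured genes and 68.1% of the 1679 abundant ones.

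None of the 13 other methionine cycle and salvage genes was called higher or lower, that is 0 of 13, and their median log2 ratio was -0.20. The salvage genes Adi1 (171 and 124 FPKM) and Apip (24.0 and 16.5 FPKM), which rebuild methionine after polyamine synthesis, had ratios of -0.46 and -0.51. Other salvage genes of the list were nearly level, with Mtap at 0.01, Mri1 at -0.06 and Enoph1 at 0.04. Among 9 measured genes of small-molecule methylation and creatine, Slc6a8 was the 1 called higher and the median was -0.02. Of 17 measured folate, choline and glycine genes, 1 was called higher and 0 lower, with a median of -0.08. That gene was Mthfd1l, a mitochondrial enzyme that releases formate, with 1.06 FPKM in the control pool and 4.03 in the Alb-Cre pool, a log2 ratio of 1.28 and a q-value of 0.333 in the authors' deposited table. With a pseudocount of 5 FPKM the ratios of Mthfd1l and Slc6a8 were 0.57 and 0.54, short of 2-fold. Of the choline-to-glycine enzymes, Dmgdh had 211 and 139 FPKM (-0.60) and Sardh 328 and 274 FPKM (-0.26). On the same route Aldh7a1 had 252 and 179 FPKM (-0.50), while Chdh was nearly level at 48.6 and 46.7 FPKM (-0.06).

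Genes of sulfur oxidation, sulfide and taurine handling had the lowest median of the 7 lists, -0.36, with 0 of 15 called in either direction and 12 of 15 below 0. Hepatocyte markers had nearly the same median, -0.35, with 8 of 9 below 0. Baat, which joins taurine to bile acids, had 197 and 117 FPKM, a log2 ratio of -0.74. Suox, sulfite oxidase, had 86.2 and 55.7 FPKM (-0.62), and Tst, the sulfur transferase rhodanese, had 263 and 172 FPKM (-0.61). The taurine transporter gene Slc6a6 had 33.1 and 26.5 FPKM (-0.31). The 3 genes of the list with ratios above 0 were Ccbl2 (0.43), Papss2 (0.10) and Fmo2 (0.01). None of these genes differed by 2-fold, as Csad did. In the glutathione list 0 of 9 measured genes were called and the median was -0.24, and in the polyamine list 0 of 9 with a median of -0.25.

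The nicotinamide and NAD list, which surrounds Nnmt, had 17 measured genes, of which 1 was called higher, 1 lower and 15 neither, with a median of -0.17. The higher one was Acmsd, a decarboxylase that diverts tryptophan breakdown away from NAD, with 9.87 FPKM in the control pool and 42.3 in the Alb-Cre pool, a log2 ratio of 1.99. Acmsd was called in the authors' deposited table with a q-value of 0.0109. The lower one was Aox1. Nampt, which returns nicotinamide to NAD and so competes with Nnmt for it, had 35.9 and 37.6 FPKM. Haao, which forms quinolinate, had 666 and 399 FPKM, a ratio of -0.74, and Qprt, which carries quinolinate towards NAD, had 157 and 128 FPKM.

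**Figure D4:**
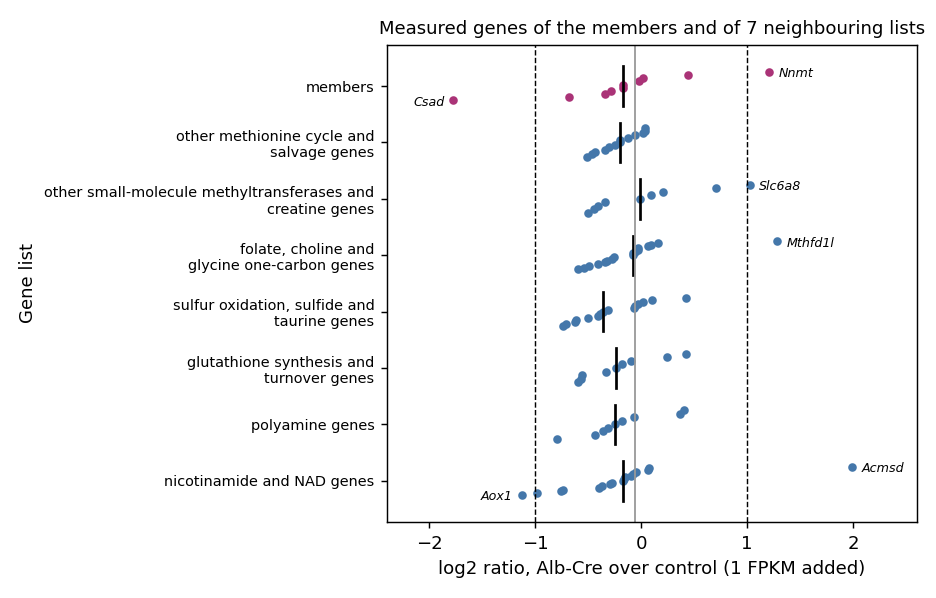
Log2 ratio of the Alb-Cre over the control level, with 1 FPKM added, 1 point per measured gene, for the 10 enzyme genes (top) and 7 lists of neighbouring pathways; black bars are list medians, the grey line is the median of all measured genes (-0.06) and dashed lines mark 2-fold. Genes past 2-fold are named: Csad and Aox1 to the left, and Nnmt, Slc6a8, Mthfd1l and Acmsd to the right.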

How the data were processed

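Libraries were made from perfused livers, with the mRNA of 4 livers pooled per library, per the labels. The submitters' processing notes name FastQC, TopHat2 2.0.8, Cuffdiff 2.1.1 and build mm10, with no role or order. The authors deposited a Cuffdiff-style table with an FPKM value per gene and library, and the authors' p-value and q-value per gene, per the file headers. The scaling setting, annotation, strandedness and the depth of each library are not given in the sources used here. From the step size of low values, the depth of the Alb-Cre pool was about 1.12 times that of the control pool, if scaling used fragments alone. Of 23283 rows, 17 had status HIDATA and 1 FAIL, and these were set aside. The columns of both libraries were used and 0 value columns were left unmatched.

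A log2 ratio with a pseudocount of 1 FPKM was computed for genes of status OK with 1 FPKM or more in at least 1 library. Scripts were tested on simulated data. Members, lists and limits were chosen with earlier results of these data known. The genes named were all 10 enzymes, Akt1 and Akt2, direct partners of the enzymes, list genes past 2-fold, up to 2 markers per list and the 2 genes nearest in level to Csad and to Nnmt. Further list genes and some markers beyond that number were named after their values were seen, for their place in the pathway. These list genes were Adi1, Apip, Mtap, Mri1, Enoph1, Dmgdh, Sardh, Aldh7a1, Chdh, Gclm, Gss, Baat, Suox, Tst, Slc6a6, Nampt, Haao and Qprt. Ccbl2, Papss2 and Fmo2 were named as the genes of the sulfur list with ratios above 0. Positions were read from GENCODE vM21 (mm10, first base 1). Of the listed genes, Amd1 (in a row that joins it with Amd2) and Nmrk1 were not matched. Alternatives were other pseudocounts, minimums, scalings, statuses and fold limits. Python 3.11.15, pandas 2.3.3, numpy 2.4.6 and matplotlib 3.10.9 were used.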

Additional observations from a re-analysis of the deposited data

How the results depend on the processing

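Csad stayed at or past 2-fold lower and Nnmt at or past 2-fold higher under other pseudocounts, minimums, scalings and statuses, with log2 ratios of -1.80 to -1.64 for Csad and 1.18 to 1.34 for Nnmt. At a 4-fold limit 0 enzyme genes were higher and 0 lower. At a 1.5-fold limit 2 were lower, Csad and Gamt, and 1 was higher, against 661 lower and 1012 higher of 11406 measured genes. No paired analysis was possible because each genotype has 1 library. The spread between mice, which pooling hides, and the read totals limit every value here.

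Of the 89 measured pathway genes, 1 was higher and 0 lower with a pseudocount of 5 FPKM, and 0 were lower with centred ratios. At a 1.5-fold limit 4 pathway genes were higher and 11 lower, and at a 4-fold limit 0 were higher and 0 lower. Among genes with a mean of 50 FPKM or more, a setting chosen after seeing the data, 0 pathway genes were higher and 0 lower. Over all measured genes the count of higher ones was 769 with a pseudocount of 0.1 FPKM, 178 with 5 FPKM and 283 with a minimum of 5 FPKM, against 428. At a 1.5-fold limit 1012 were higher and 661 lower, at a 4-fold limit 117 and 45, and among the genes with a mean of 50 FPKM or more 53 and 82.

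With libraries rescaled to the same sum, the median log2 ratio was -0.055 for the enzyme genes and 0.040 for all measured genes. For the lists it was -0.13 for methionine cycle genes, -0.071 for nicotinamide genes, 0.10 for methyltransferase and creatine genes, 0.034 for folate genes, -0.24 for sulfur genes, -0.12 for glutathione genes and -0.13 for polyamine genes. With centred ratios the median was -0.040 for the enzyme genes and 0.071 for all measured genes, and for the lists -0.067 for methionine cycle genes, 0.12 for methyltransferase and creatine genes, 0.054 for folate genes, -0.22 for sulfur genes, -0.10 for glutathione genes, -0.12 for polyamine genes and -0.033 for nicotinamide genes. The methionine cycle median was -0.31 with a pseudocount of 0.1 FPKM and -0.30 with a minimum of 5 FPKM, at which the folate median was -0.26. The cause of these shifts other than the scalings themselves was not tested.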
